A study of Mus musculus with 4 samples.

Results

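Astrocytes were followed through 9 genes that mark them, *Gfap*, *Aqp4*, *Gja1*, *Gjb6*, *Aldoc*, *S100b*, *Agt*, *Fgfr3* and *Sox9*, which were taken by symbol from the 19465 features of the probe set. Each of the 9 symbols matched 1 feature. Astrocytes are star-shaped glial cells that tile the whole brain, clear glutamate and potassium from around synapses, store glycogen and cover blood vessels with their endfeet. They are joined to each other by gap junctions, form a limiting layer under the pia, and are commonly divided into protoplasmic astrocytes of grey matter and fibrous astrocytes of white matter. In rodents they multiply and mature during the first weeks after birth, the period in which the pups studied here were nursed.

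The dams were C57BL/6J mice of 8 weeks by the sample record, while the study's methods give a range of ages from 8 weeks up. They ate a control diet with 2 mg/kg folic acid (the MF group) or a diet with an excess of 20 mg/kg (the HF group), from 2 weeks before mating until the end of lactation. Brains of their wild-type offspring were fixed at postnatal day 21, embedded in paraffin and cut in the coronal plane, and 2 sections per diet were measured on Visium slides with ligated probe pairs. The offspring were males according to the study's methods. The comparison between diets asks whether the excess of folic acid in the dam's diet went along with other transcript levels in the brain of the pup.

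MF replicate 1 held 90096877 unique molecular identifiers (UMIs) in 3598 spots. MF replicate 2 held 42422997 in 3314 spots, HF replicate 1 34982061 in 3197 spots and HF replicate 2 42506921 in 3343 spots. The median depth per spot was therefore highest in MF replicate 1, at 23543.5 UMIs, and lowest in HF replicate 1, at 9286 UMIs. The 9 genes were detected with 13024 UMIs (*Sox9*) to 167582 UMIs (*Aldoc*) over the 4 sections, and all 9 passed the filter on low counts in every comparison. Where 4 values follow each other below without their sections, they are in the order MF replicate 1, MF replicate 2, HF replicate 1 and HF replicate 2. A level is the number of UMIs of a gene in the spots named, summed within a section and scaled by all UMIs of these spots to CPM. Levels of the 9 genes were not compared with each other, since genes differ in their number of probes. In summed lists of other genes, the gene with the highest CPM is named only to show which gene leads the sum. A spot holds several cells, so a lower level can come from fewer astrocytes or from less RNA per astrocyte, and these cannot be told apart.

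The genes fall into groups by role, with positions given for the mouse build mm10 (GRCm38, GENCODE). *Gfap* (ENSMUSG00000020932, chromosome 11, 102887336 to 102900912, minus strand) encodes the glial fibrillary acidic protein, the intermediate filament of fibrous and reactive astrocytes. *Aqp4* (ENSMUSG00000024411, chromosome 18, 15389496 to 15410982, minus strand) encodes the water channel of astrocyte endfeet. *Gja1* (ENSMUSG00000050953, chromosome 10, 56377330 to 56402513, plus strand) and *Gjb6* (ENSMUSG00000040055, chromosome 14, 57123303 to 57133611, minus strand) encode connexin proteins that form the gap junctions between astrocytes. *Aldoc* (ENSMUSG00000017390, chromosome 11, 78322968 to 78327781, plus strand) encodes the brain form of the glycolytic enzyme aldolase, and *S100b* (ENSMUSG00000033208, chromosome 10, 76253853 to 76261159, plus strand) a calcium-binding protein that oligodendrocytes also make. *Agt* (ENSMUSG00000031980, chromosome 8, 124556534 to 124569706, minus strand) encodes angiotensinogen, the precursor of the angiotensin peptides. *Fgfr3* (ENSMUSG00000054252, chromosome 5, 33721674 to 33737068, plus strand) encodes a receptor of fibroblast growth factors, and *Sox9* (ENSMUSG00000000567, chromosome 11, 112782224 to 112787760, plus strand) a transcription factor of the astrocyte lineage that ependymal cells also hold.

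Spots of the 4 sections were clustered together without these 9 genes and without the other astrocyte genes that were counted later, and clusters were grouped into areas by marker genes of neurons and myelin. The cortex took 1106, 1029, 918 and 1028 spots in the 4 sections. The hippocampus took 285, 261, 226 and 312 spots, the thalamus 663, 621, 596 and 529, the hypothalamus 659, 567, 567 and 497, the striatum 175, 149, 130 and 216 and the white matter 324, 319, 236 and 358. The areas of 1 section share its library, so section was a block in each test between areas. A gene was called at an adjusted p under 0.05 over all genes tested together with a difference of at least 1.2-fold.

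The white matter was set apart from the 5 grey matter areas by the genes of the filament, the endfoot channel and the calcium-binding protein. In the white matter *Gfap* stood at 399.8 CPM in MF replicate 1, 511 CPM in MF replicate 2, 420.2 CPM in HF replicate 1 and 318 CPM in HF replicate 2. In the cortex it stood at 82.0 CPM in MF replicate 1, 76.8 CPM in MF replicate 2, 56.5 CPM in HF replicate 1 and 48.7 CPM in HF replicate 2. The lowest white matter level of the 4 sections, in HF replicate 2, was above the highest cortical level, in MF replicate 1. Averaged over sections, *Gfap* went from 412 ± 79.1 CPM (SD, n = 4 sections) in the white matter through 225 ± 27.5 CPM in the hippocampus, 131 ± 28.6 CPM in the hypothalamus, 117 ± 25.1 CPM in the striatum and 82.2 ± 22.4 CPM in the thalamus to 66.0 ± 15.9 CPM in the cortex. The white matter did not overlap with the hippocampus, nor the hippocampus with the hypothalamus, whereas the hypothalamus and the striatum, the striatum and the thalamus, and the thalamus and the cortex overlapped in their ranges over sections. Against the mean of the grey matter areas, *Gfap* was 3.67-fold higher in white matter (log2 difference 1.88, SE 0.06, adjusted p = 2.5e-23, edgeR), in 4 of 4 sections.

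*Aqp4* in the white matter stood at 141 CPM in MF replicate 1, 191 CPM in MF replicate 2, 147 CPM in HF replicate 1 and 108 CPM in HF replicate 2, and in the cortex at 38.3 to 61.2 CPM. MF replicate 2 was the highest of the 4 sections in white matter and HF replicate 2 the lowest, and the ranges of white matter and cortex did not overlap. The order ran from the white matter (147 ± 33.9 CPM, SD, n = 4) over the thalamus (90.3 ± 17.4 CPM), the hippocampus (88.7 ± 20.6 CPM), the hypothalamus (80.9 ± 14.2 CPM) and the striatum (64.1 ± 9.65 CPM) to the cortex (49.4 ± 10.2 CPM). All neighbours in this order overlapped in their ranges, although the white matter was above the thalamus, the hypothalamus above the striatum and the striatum above the cortex within each of the 4 sections. The difference of *Aqp4* from grey matter was 2.06-fold (log2 difference 1.04, SE 0.05, adjusted p = 9.4e-18, edgeR), with white matter higher in 4 of 4 sections. *S100b* stood at 446 CPM in MF replicate 1, 492 CPM in MF replicate 2, 327 CPM in HF replicate 1 and 500.3 CPM in HF replicate 2 in the white matter. HF replicate 1 was below the 3 other sections there, and the diets overlapped. Its order ran from the white matter (441 ± 79.7 CPM, SD, n = 4) over the thalamus (288 ± 59.5 CPM), the striatum (251 ± 40.6 CPM), the hypothalamus (249.7 ± 43.5 CPM) and the cortex (196 ± 20.9 CPM) to the hippocampus (189.7 ± 28.0 CPM). Ranges of all neighbours overlapped, but within each section the white matter was above the thalamus, the thalamus above the striatum and the hypothalamus above the cortex. Against grey matter *S100b* was 1.95-fold higher (log2 difference 0.97, SE 0.04, adjusted p = 2.5e-19, edgeR), in 4 of 4 sections.

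In all, 6 of the 9 genes were called higher in white matter, beside 21% of the 13624 genes tested, and 0 were called lower, beside 20.7%. With edgeR, 7 of the 9 had an unadjusted p under 0.05, 1 of them below 0, beside 60.5% of all genes in either direction. DESeq2 called 6 genes higher and 0 lower, beside 2955 and 2556 of all genes. The other genes called were *Agt* (log2 difference 0.54, SE 0.06, adjusted p = 7.2e-09, edgeR), *Gja1* (log2 difference 0.30, SE 0.03) and *Sox9* (log2 difference 0.30, SE 0.06), each higher in 4 of 4 sections. *Gjb6*, the other connexin, was lower in white matter in 4 of 4 sections without reaching the fold threshold (log2 difference -0.18, SE 0.06, adjusted p = 0.011, edgeR). *Aldoc* (log2 difference -0.04, SE 0.04) and *Fgfr3* (log2 difference -0.10, SE 0.06) were not called. The median of the 9 genes was 0.30 on the log2 scale, beside -0.03 over all genes. Scaled by library size alone, *Gja1* (0.26) and *Sox9* (0.26) fell just short of 1.2-fold. *Sox9* was also not called with interior spots alone, those whose neighbours all lay in the same area (0.19).

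Of 47 other astrocyte genes measured, 18 were called higher in white matter, beside 21% of all genes, and 0 lower, beside 20.7%. Their median was 0.17 on the log2 scale, beside -0.03 over all genes. By edgeR, 28 of the 47 had an unadjusted p under 0.05, as had 60.5% of all genes. Of 16 intermediate filament and reactive astrocyte genes, 11 were tested, and 5 of these were called higher and 0 lower, with a median of 0.22. The called genes with the largest differences in the 2 lists were *C4b*, a complement component (log2 difference 1.16, SE 0.10), *Aspg*, an asparaginase (log2 difference 1.04, SE 0.17), and *Daam2*, a formin of Wnt signalling (log2 difference 1.03, SE 0.07). Myelin genes marked the same spots: 12 of 12 oligodendrocyte genes were called higher in white matter. Their summed level was 81108, 97446, 90995 and 75549 CPM in the white matter, and 12589.8, 11816, 10229.5 and 9268 CPM in the cortex, with *Mbp* the most abundant and no gene at 0. Microglial genes were also called higher (7 of 7), as were oligodendrocyte precursor genes (5 of 5, summed levels 686, 738, 828 and 678 CPM, *Tnr* the most abundant). Ependymal (5 of 5, 61.8, 56.1, 70.0 and 60.8 CPM, led by *Foxj1*), choroid plexus (5 of 6, 3414, 2253, 3422 and 3144 CPM, led by *Ttr*), meningeal (4 of 8, 107, 104, 115 and 67.9 CPM, led by *Col1a2*) and endothelial genes (3 of 5, 348, 341, 374 and 371 CPM, led by *Cldn5*) were called higher there too. Of neuron genes 5 of 8 were called lower (4341, 3910.2, 4466 and 3914 CPM, *Snap25* the most abundant), and no gene of these lists was at 0. The part of these cells in the levels of the 9 genes was not tested.

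**Figure D1:**
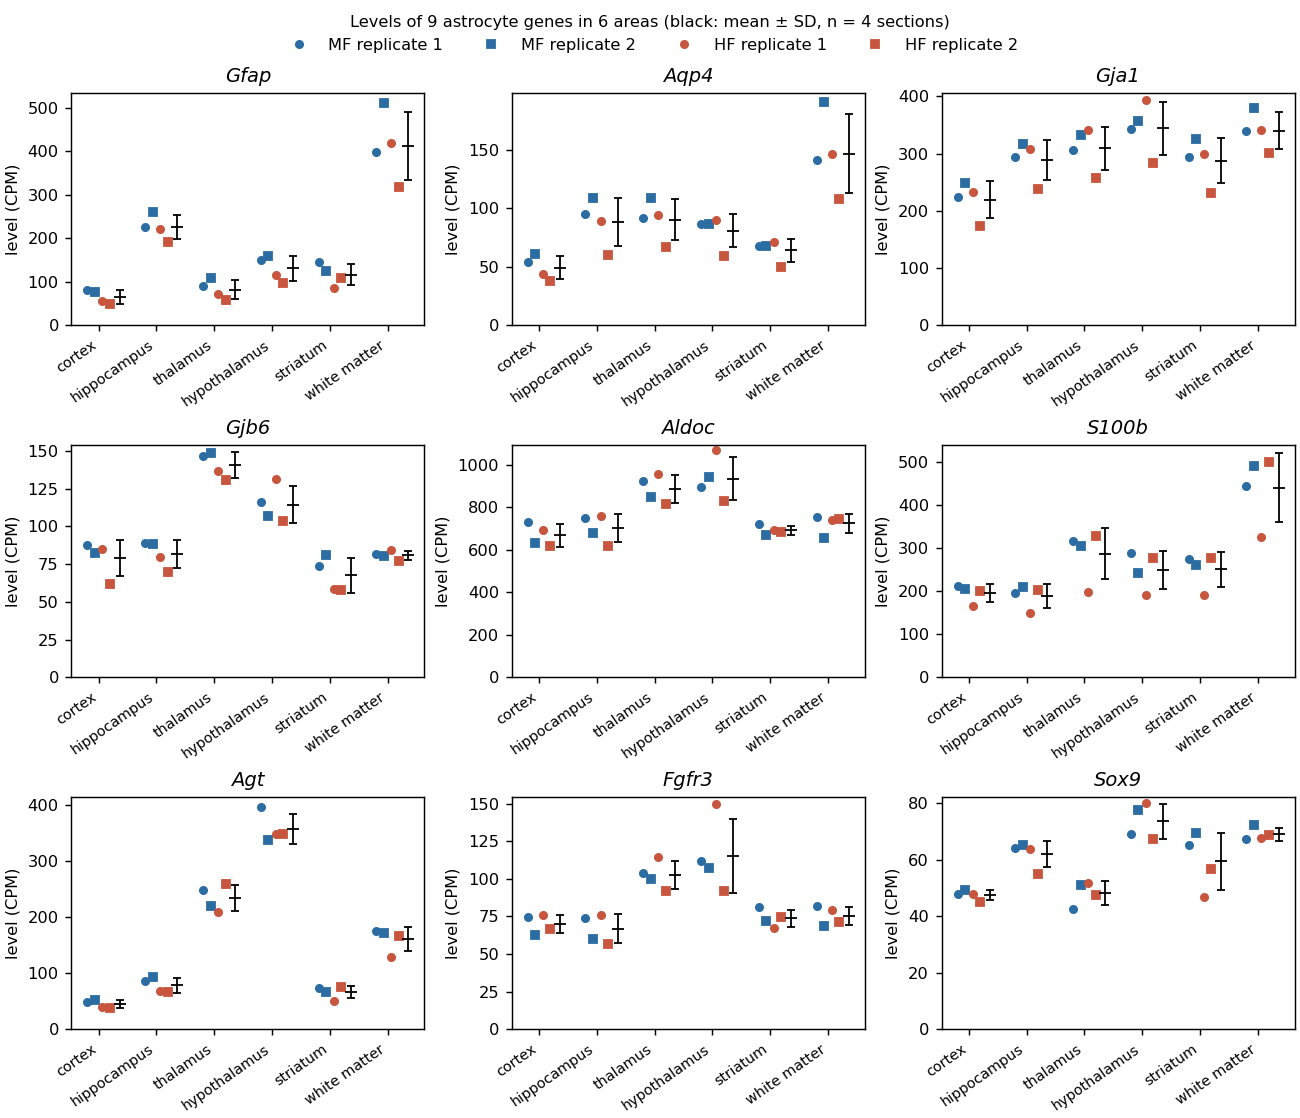
Levels of the 9 genes in CPM (vertical axis) in the cortex, hippocampus, thalamus, hypothalamus, striatum and white matter (horizontal axis), with 1 point per section (blue MF, red HF) and the mean ± SD of the 4 sections in black. *Gfap*, *Aqp4* and *S100b* were highest in white matter, at 412, 147 and 441 CPM on average, and *Agt* in the hypothalamus, at 358 CPM.

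The hypothalamus was marked by *Agt*, the angiotensin precursor. *Agt* stood there at 397 CPM in MF replicate 1, 338 CPM in MF replicate 2, 349 CPM in HF replicate 1 and 348 CPM in HF replicate 2. In the cortex the same gene stood at 48.1 CPM in MF replicate 1, 52.7 CPM in MF replicate 2, 39.7 CPM in HF replicate 1 and 37.7 CPM in HF replicate 2. The 4 sections lay close together in the hypothalamus, MF replicate 1 being the highest, and every hypothalamic level was above every level in the cortex. Its order ran from the hypothalamus (358 ± 26.2 CPM, SD, n = 4) over the thalamus (235 ± 23.5 CPM), the white matter (161 ± 21.1 CPM), the hippocampus (79.0 ± 13.4 CPM) and the striatum (66.6 ± 11.5 CPM) to the cortex (44.6 ± 7.08 CPM). The ranges of the first 4 areas did not overlap between neighbours, whereas the hippocampus and the striatum, and the striatum and the cortex, did. *Agt* was 3.82-fold higher in the hypothalamus than in the mean of the other grey matter areas (log2 difference 1.93, SE 0.05, adjusted p = 1.2e-24, edgeR), in 4 of 4 sections.

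*Fgfr3*, the growth factor receptor, stood at 112 CPM in MF replicate 1, 107 CPM in MF replicate 2, 149.6 CPM in HF replicate 1 and 92.2 CPM in HF replicate 2 in the hypothalamus, and the highest and the lowest of these came from the same diet, HF replicates 1 and 2. It went from the hypothalamus (115 ± 24.5 CPM, SD, n = 4) and the thalamus (103 ± 9.38 CPM) down to the white matter (75.3 ± 6.17 CPM), the striatum (73.8 ± 5.65 CPM), the cortex (70.0 ± 6.14 CPM) and the hippocampus (66.7 ± 9.65 CPM). Neighbours overlapped in their ranges except for the step from the thalamus to the white matter. *Sox9*, the lineage factor, went from 73.5 ± 6.26 CPM (SD, n = 4) in the hypothalamus over 68.9 ± 2.22 CPM in the white matter, 62.0 ± 4.72 CPM in the hippocampus, 59.4 ± 10.1 CPM in the striatum and 48.1 ± 4.32 CPM in the thalamus to 47.4 ± 1.86 CPM in the cortex. Only the white matter and the hippocampus did not overlap among its 5 pairs of neighbours. Both genes were called higher in the hypothalamus than in the other grey matter, *Fgfr3* at 1.35-fold (log2 difference 0.43, SE 0.05, adjusted p = 5.6e-09, edgeR) and *Sox9* at 1.24-fold (log2 difference 0.31, SE 0.05), each in 4 of 4 sections. With a Leiden resolution of 0.5 *Sox9* was not called (0.17).

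*Aldoc*, the glycolytic enzyme, went from 934 ± 102 CPM (SD, n = 4) in the hypothalamus and 885 ± 65.3 CPM in the thalamus to 724 ± 45.2 CPM in the white matter, 702 ± 67.1 CPM in the hippocampus, 692 ± 20.4 CPM in the striatum and 668 ± 53.5 CPM in the cortex. The thalamus and the white matter did not overlap, whereas the 4 other pairs of neighbours did. The connexin gene *Gjb6* was highest in the thalamus (141 ± 8.51 CPM, SD, n = 4), followed by the hypothalamus (114 ± 12.3 CPM), the hippocampus (81.8 ± 9.12 CPM), the white matter (80.8 ± 3.08 CPM), the cortex (79.2 ± 11.9 CPM) and the striatum (67.7 ± 11.6 CPM). Its hypothalamus and hippocampus did not overlap, and the ranges of neighbours from the hippocampus to the striatum overlapped, with the cortex above the striatum within each section. *Gja1*, the other connexin gene, was nearly even from the hypothalamus (345 ± 46.4 CPM, SD, n = 4) over the white matter (340.3 ± 32.4 CPM), the thalamus (309.6 ± 37.8 CPM) and the hippocampus (289 ± 35.7 CPM) to the striatum (288 ± 39.7 CPM), with the cortex at 219.6 ± 32.7 CPM. Each pair of neighbours in the order of *Gja1* overlapped, but within each section the thalamus was above the hippocampus and the striatum above the cortex.

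Over the 9 genes, 3 were called higher in the hypothalamus, beside 21.9% of 13624 genes, and 0 lower, beside 19.5%. With edgeR, none of the 9 had a difference below 0 in this contrast. An unadjusted p under 0.05 was held by 6 of the 9, beside 63.6% of all genes in either direction. DESeq2 called 3 higher and 0 lower, beside 2906 and 2596 of all genes. *Gja1* (log2 difference 0.21, SE 0.03), *Gjb6* (log2 difference 0.24, SE 0.05) and *Aldoc* (log2 difference 0.23, SE 0.04) were each higher in 4 of 4 sections but under 1.2-fold. *Gfap* (log2 difference 0.13, SE 0.07), *Aqp4* (log2 difference 0.07, SE 0.05) and *S100b* (log2 difference 0.02, SE 0.04) missed both thresholds, and *Gfap* turned to -0.04 with a Leiden resolution of 0.5. Scaling by library size alone moved the median of all genes from 0.01 to 0.13 and the genes called from 2983 higher and 2650 lower to 4296 higher and 1810 lower; 6 of the 9 genes were then called. *Gja1* stood at 0.33, *Gjb6* at 0.36 and *Aldoc* at 0.35 under that scaling. With interior spots, *Gjb6* (0.35) and *Aldoc* (0.28) were called in addition, 5 genes in all, beside 5481 of 13107 genes. Without MF replicate 2 *Gjb6* was called as well (0.31).

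Of the other astrocyte genes 16 of 47 were called higher in the hypothalamus, beside 21.9% of all genes, and 9 lower, beside 19.5%. Their median was 0.13, beside 0.01 over all genes. Of the reactive list, 7 of 11 genes tested were called higher and 1 lower, with a median of 0.45. The highest were *Itih3*, a heavy chain of the inter-alpha-trypsin inhibitor (log2 difference 2.33, SE 0.08), *Slc6a11*, a GABA transporter (log2 difference 1.58, SE 0.06), and *Serpina3n*, a protease inhibitor (log2 difference 1.44, SE 0.16). The lowest were *Lhx2*, a homeodomain factor of the forebrain (log2 difference -1.39, SE 0.07), *Dio2*, the deiodinase that activates thyroid hormone (log2 difference -1.04, SE 0.07), and *Grm3*, a metabotropic glutamate receptor (log2 difference -0.89, SE 0.08). Ependymal genes (5 of 5) and meningeal genes (8 of 8) were called higher in the hypothalamus as well. The ependymal sum was 58.1, 64.1, 83.0 and 86.4 CPM, led by *Rarres2*, and the meningeal sum 161, 133, 198 and 64.8 CPM, led by *Col1a2*. Oligodendrocyte precursor genes (3 of 5) and endothelial genes (1 of 5) were called higher, and 2 of 6 choroid plexus genes lower. Of neuron genes 3 were called higher and 5 lower of 8, with summed levels of 3658, 3984, 4141 and 4129 CPM led by *Snap25*; none of these genes was at 0, and the part of these cells in the result was not tested.

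In the hippocampus *Gfap* and *Agt* went in opposite directions. *Gfap* stood at 227 CPM in MF replicate 1, 259.6 CPM in MF replicate 2, 222 CPM in HF replicate 1 and 192 CPM in HF replicate 2, and *Agt* at 87.0 CPM in MF replicate 1, 93.6 CPM in MF replicate 2, 68.7 CPM in HF replicate 1 and 66.6 CPM in HF replicate 2. Both genes were higher in the 2 MF sections than in the 2 HF sections, as were 20.5% of features with at least 100 UMIs. Against the mean of the other grey matter areas *Gfap* was 2.36-fold higher in the hippocampus (log2 difference 1.24, SE 0.06, adjusted p = 4.3e-17, edgeR), in 4 of 4 sections. *Agt* was 1.59-fold lower there (log2 difference -0.67, SE 0.07, adjusted p = 1.3e-09, edgeR), also in 4 of 4 sections. *Aqp4*, the endfoot channel, was 1.29-fold higher (log2 difference 0.36, SE 0.06), whereas *Fgfr3* (log2 difference -0.40, SE 0.06) and *S100b* (log2 difference -0.35, SE 0.05) were called lower, each with the same sign in 4 of 4 sections. That made 2 of 9 genes called higher, beside 14.9% of all genes, and 3 called lower, beside 15.2%. The median of the 9 was -0.15 beside -0.02 over all genes.

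*Gja1* (log2 difference 0.03, SE 0.03), *Gjb6* (log2 difference -0.22, SE 0.06), *Aldoc* (log2 difference -0.15, SE 0.04) and *Sox9* (log2 difference 0.15, SE 0.05) were not called in the hippocampus. With each spot thinned to 5000 UMIs, *S100b* (0.01), *Gjb6* (0.09) and *Aldoc* (0.14) turned above 0, *Fgfr3* was not called (-0.12), and *Gja1* (0.28) and *Sox9* (0.37) were called higher. Thinning gives each spot the same weight and also leaves out spots under 5000 UMIs, and these were not told apart. With interior spots, *Aqp4* was not called (0.13), *Gja1* turned to -0.17, and *Gjb6* (-0.59) and *Aldoc* (-0.31) were called lower. With a Leiden resolution of 0.5, *S100b* (-0.16) and *Fgfr3* (-0.23) were not called, *Sox9* was called higher (0.30) and *Aldoc* turned to 0.01. *Gfap* and *Agt* were called in the same direction under every alternative run. Of the other astrocyte genes 6 of 47 were called higher in the hippocampus, beside 14.9% of all genes, and 14 lower, beside 15.2%, with a median of -0.11. Of the reactive genes 4 of 11 were called higher and 1 lower, with a median of 0.13. The highest were *Serpina3n* (log2 difference 1.73, SE 0.17), *Nfia*, a nuclear factor I gene (log2 difference 1.07, SE 0.05), and *Gldc*, the glycine decarboxylase (log2 difference 1.06, SE 0.13). The lowest were *Cd44*, the hyaluronan receptor (log2 difference -0.95, SE 0.16), *Slc6a9*, a glycine transporter (log2 difference -0.84, SE 0.06), and *Itih3* (log2 difference -0.81, SE 0.12). Among other cells, 12 of 12 oligodendrocyte genes were called lower in the hippocampus (summed levels 16274, 15341, 11056 and 10678 CPM, led by *Mbp*). Also, 5 of 6 choroid plexus genes (3313, 2348, 2775 and 2657 CPM, led by *Ttr*) and 6 of 8 meningeal genes (129, 124, 133 and 68.8 CPM, led by *Col1a2*) were called higher; none was at 0 and their part was not tested.

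Within the hippocampus, spots of low depth held higher levels of all 9 genes. These spots were, by a definition made after seeing the data, those of the cluster with a median depth below that of its section, 145, 158, 112 and 176 spots, against 140, 103, 114 and 136 spots of the other hippocampal clusters. The split rests on depth alone, which is also the denominator of CPM, and the leading genes of the low-depth cluster include *Fibcd1* and *Spink8*, which also lead a cluster of the CA1 pyramidal layer. *Aldoc* stood at 1164 CPM in MF replicate 1, 1055 CPM in MF replicate 2, 1219.7 CPM in HF replicate 1 and 1125 CPM in HF replicate 2 in the low-depth spots. In the other hippocampal spots it stood at 575 CPM in MF replicate 1, 498 CPM in MF replicate 2, 592 CPM in HF replicate 1 and 423 CPM in HF replicate 2. HF replicate 1 was the highest and the ranges of the 2 sets of spots lay far apart. *Gja1* stood at 418 CPM in MF replicate 1, 505 CPM in MF replicate 2, 461 CPM in HF replicate 1 and 436 CPM in HF replicate 2 in the low-depth spots, above its 161 to 251 CPM in the others. The diets overlapped in the low-depth spots for both genes. The largest log2 differences were those of *S100b* (log2 difference 1.34, SE 0.08, 2.54-fold), *Fgfr3* (log2 difference 1.30, SE 0.09, 2.46-fold) and *Aldoc* (log2 difference 1.16, SE 0.06, 2.23-fold). *Gjb6* (log2 difference 1.11, SE 0.09) and *Gja1* (log2 difference 1.07, SE 0.07) followed, and then *Aqp4* (log2 difference 0.80, SE 0.09), *Gfap* (log2 difference 0.78, SE 0.07) and *Sox9* (log2 difference 0.70, SE 0.10). *Agt* had the smallest difference (log2 difference 0.44, SE 0.10, adjusted p = 8.3e-04, edgeR), and it was not called with spots thinned to 5000 UMIs (0.30). All 9 genes were called higher in the low-depth spots, each in 4 of 4 sections, beside 17.6% of 11725 genes, and 0 lower, beside 12.1%. No gene of the 9 lay below 0 in the edgeR test, and 9 had an unadjusted p under 0.05, beside 42.9% of all genes in either direction. DESeq2 called 9 higher and 0 lower, beside 1308 and 835 of all genes.

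Of the other astrocyte genes 42 of 46 tested were called higher in the low-depth spots, beside 17.6% of all genes, and 1 lower, beside 12.1%. Their median was 0.98, beside -0.01 over all genes. The median of the 9 genes was 1.07. *Ppp1r3c*, which targets a phosphatase to glycogen, had the largest difference of the 2 lists (log2 difference 1.36, SE 0.15), followed by the serine protease gene *Htra1* (log2 difference 1.32, SE 0.07) and *Grm3* (log2 difference 1.24, SE 0.12). Reactive genes were called higher in 4 of 11 cases and lower in 1, and the genes called lower in the 2 lists were *Serpina3n* (log2 difference -0.66, SE 0.16) and *Nfia* (log2 difference -0.35, SE 0.07). The low-depth spots were also richer in oligodendrocyte genes (12 of 12 called higher), with sums of 23588, 26003, 17808 and 20429.9 CPM against 13146, 10197, 8556 and 6927 CPM in the others, led by *Mbp*. Microglial genes (7 of 7) and endothelial genes (5 of 5, 368, 454, 499.8 and 373 CPM, led by *Cldn5*) were called higher too, as were 4 of 5 oligodendrocyte precursor and 2 of 4 ependymal genes tested. Of neuron genes 2 were called higher and 3 lower of 8, with sums of 6239.5, 6115, 6899 and 5777 CPM in the low-depth spots, led by *Snap25*, and 7598, 7471, 7548 and 7505 CPM in the others. Of the reactive genes 1, *Timp1*, named after its values were seen, was at 0 in the low-depth spots, and no gene of the lists of other cells was. Their part in the result was not tested.

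Among cortical spots ordered by their distance from white matter, *Gfap* had its highest mean at 1 step. It stood at 104 ± 11.6 CPM (SD, n = 4) in cortical spots 1 step away, 68.4 ± 12.8 CPM at 2 steps, 60.6 ± 13.7 CPM at 3 steps, 60.8 ± 17.7 CPM at 4 steps and 63.2 ± 20.3 CPM at 5 or more steps. The white matter level beside these, 412 ± 79.1 CPM, is that of all white matter spots of a section. White matter spots next to the cortex were not taken apart. The spots next to the white matter were above those at 2 steps in each of the 4 sections, and from 2 steps on the ranges overlapped. *Agt* stood at 43.2 ± 6.99 CPM at 1 step and 47.8 ± 8.89 CPM at 5 or more steps, and the ranges of these 2 steps overlapped. Over all white matter spots it stood at 161 ± 21.1 CPM, but the white matter clusters differed in *Agt*, as given below. A change of *Agt* across the border was therefore not shown. *Gjb6*, which was even between white matter and cortex, stood at 72.6 ± 21.3 CPM at 1 step and 77.9 ± 12.7 CPM at 5 or more steps, again with overlap.

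At the edge of the cortex, where astrocytes form the glia limitans, 8 of the 9 genes were called higher in surface spots than in the interior. Most of these surface spots came from the meninges cluster. With cortex spots alone *Gfap* was the only gene of the 9 called, beside 136 of 12079 genes. *Gfap* stood at 929.6 CPM in MF replicate 1, 945 CPM in MF replicate 2, 695 CPM in HF replicate 1 and 419 CPM in HF replicate 2 in surface spots, which have a neighbouring position off the tissue. In interior spots of the cortex and meninges clusters, at least 3 steps from the edge, it stood at 108 CPM in MF replicate 1, 126 CPM in MF replicate 2, 77.3 CPM in HF replicate 1 and 62.7 CPM in HF replicate 2. HF replicate 2 was the lowest section in surface and interior alike. The difference was 7.32-fold (log2 difference 2.87, SE 0.09, adjusted p = 2.2e-17, edgeR), with the surface higher in 4 of 4 sections. *Agt* stood at 433 CPM in MF replicate 1, 321 CPM in MF replicate 2, 305 CPM in HF replicate 1 and 106 CPM in HF replicate 2 at the surface, with HF replicate 2 far below the others, and 44.5 to 63.0 CPM in the interior. The surface was 4.90-fold higher in *Agt* (log2 difference 2.29, SE 0.14, adjusted p = 8.5e-12, edgeR). *Aqp4* (log2 difference 1.72, SE 0.10, 3.30-fold), *Gjb6* (log2 difference 1.65, SE 0.09, 3.13-fold) and *Gja1* (log2 difference 1.36, SE 0.08, 2.56-fold) followed. The differences of *Sox9* (log2 difference 0.94, SE 0.10), *Fgfr3* (log2 difference 0.69, SE 0.09) and *Aldoc* (log2 difference 0.50, SE 0.08) were smaller. *S100b* was not called (log2 difference 0.22, SE 0.08, adjusted p = 0.035, edgeR), although higher in 4 of 4 sections.

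The 8 genes called higher stood beside 21.1% of 12710 genes, and 0 were called lower, beside 17.6%. No gene of the 9 lay below 0 in edgeR, and 9 had an unadjusted p under 0.05, beside 47.1% of all genes in either direction. DESeq2 called 8 higher and 0 lower, beside 2114 and 1812 of all genes. Scaled by library size alone the median of all genes moved from 0.02 to 0.13, the genes called from 2682 higher and 2238 lower to 3377 higher and 1406 lower, and *S100b* to 0.34, which passed. Meningeal tissue took most of these spots: 60, 50, 69 and 59 surface spots came from the meninges cluster, and 13, 17, 15 and 10 from cortex clusters. The interior also held 42, 38, 23 and 34 spots of the meninges cluster, beside 1011, 925, 817 and 939 from cortex clusters. All 8 of 8 meningeal genes were called higher at the surface, at sums of 1256, 882, 2049.7 and 741 CPM against 87.9, 105, 93.2 and 63.4 CPM in the interior, led by *Col1a2*, with none at 0. With the cortex spots alone, 1 of the 9 genes was called, *Gfap* (0.81), beside 136 of 12079 genes, 43 higher and 93 lower. Calls were thus fewer over all genes too. *Aqp4* (0.57), *Agt* (0.55) and *Gja1* (0.39) were not called with those spots, nor were *Aldoc* (0.29), *Gjb6* (0.15), *Fgfr3* (0.09) and *Sox9* (0.00), and *S100b* turned to -0.23. Endothelial (5 of 5, 709, 698, 1154 and 653 CPM, led by *Cldn5*), microglial (7 of 7) and choroid plexus genes (5 of 5 tested, 936, 852, 1009.9 and 1897 CPM, led by *Ttr*) were called higher at the surface too. So were 4 of 4 ependymal genes tested (57.0, 53.5, 94.0 and 49.8 CPM, led by *Rarres2*) and 4 of 5 oligodendrocyte precursor genes (424, 409, 463 and 436 CPM, led by *Tnr*). Of neuron genes 5 of 8 were called lower and 2 higher. Their sums were 4264, 5050, 4307 and 5922 CPM at the surface and 8392, 8107, 8466 and 8232 CPM in the interior. The part of these cells was not tested. Of the other astrocyte genes 39 of 47 were called higher and 2 lower, with a median of 0.76 beside 0.02 over all genes and 1.36 over the 9, and the 2 lower ones were *Grm3* (log2 difference -0.71, SE 0.13) and *Lhx2* (log2 difference -0.34, SE 0.11). Of the reactive genes 10 of 11 tested were called higher, led by *C4b* (log2 difference 3.35, SE 0.18), *Aspg* (log2 difference 3.04, SE 0.24) and *Cp*, which encodes ceruloplasmin (log2 difference 2.98, SE 0.17).

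**Figure D2:**
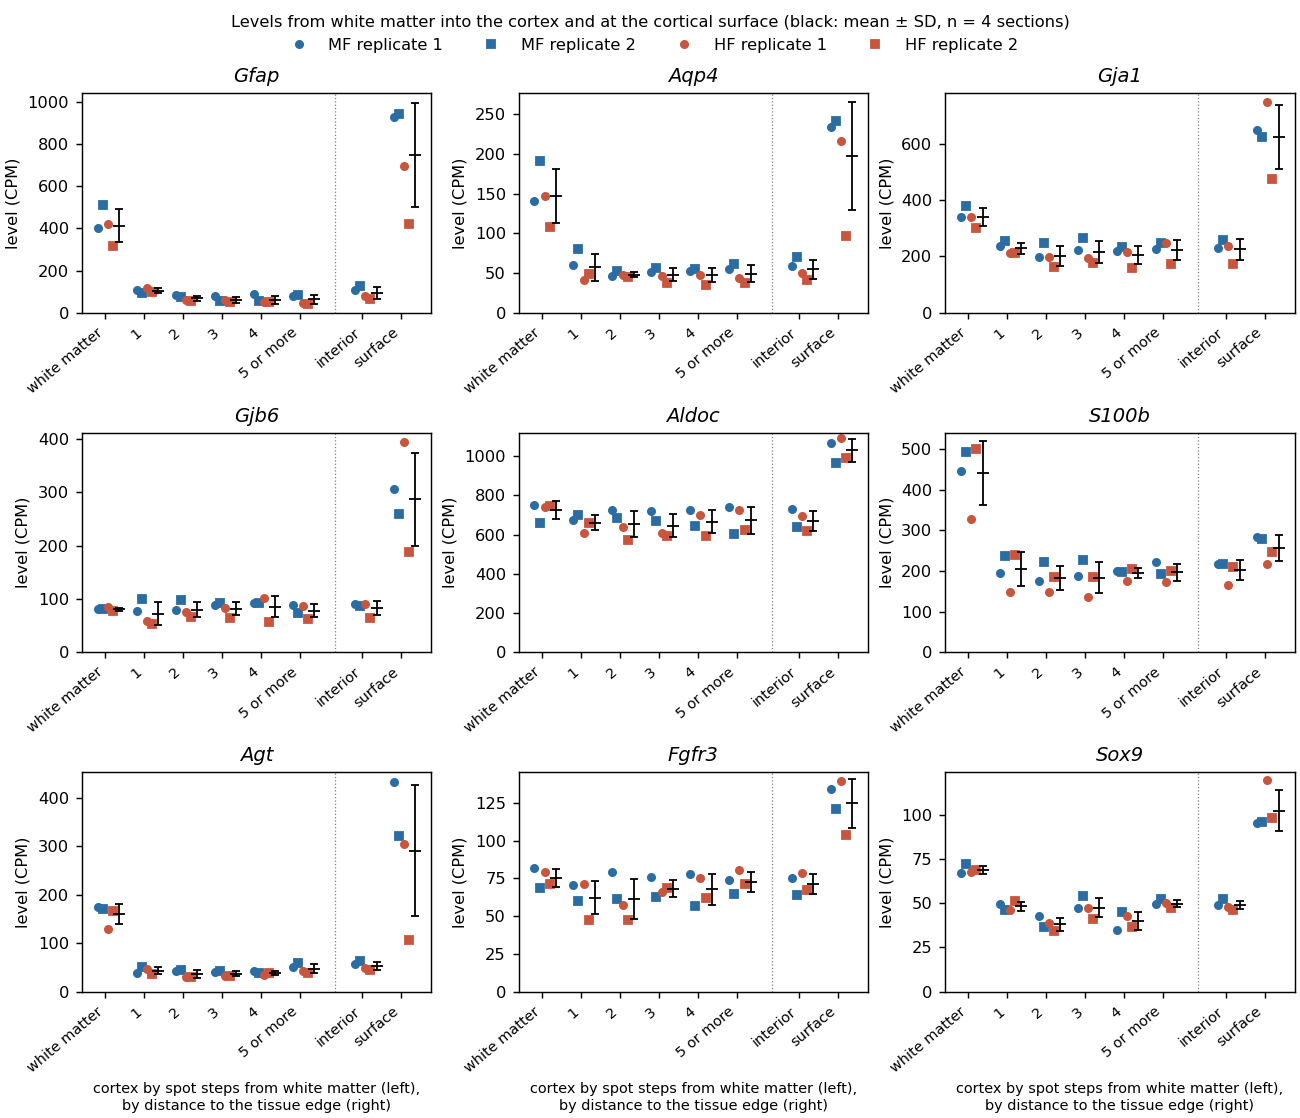
Levels of the 9 genes in CPM (vertical axis) in all white matter spots of a section, in cortical spots by their distance in spot steps from white matter, and, right of the dotted line, in the cortical interior and surface (horizontal axis), with 1 point per section (blue MF, red HF) and the mean ± SD of the 4 sections in black. *Gfap* averaged 93.4 CPM in the interior and 747 CPM at the surface, where most spots came from the meninges cluster.

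At the finer scale of 20 clusters with at least 20 spots in every section, the 9 genes had their highest levels in 5 different clusters. *Gfap* was highest in the meninges cluster (867 ± 351 CPM, SD, n = 4), next in the white matter cluster led by *Gsn*, *Mag* and *Mal* (437 ± 103 CPM), and lowest in the upper cortical cluster led by *Tnnc1*, *Lamp5* and *Kcnh5* (48.8 ± 14.2 CPM). *Aqp4* was likewise highest in the meninges cluster (223 ± 79.9 CPM), and next in the medial habenula (208 ± 7.51 CPM), where the 4 sections lay close together. *Gja1* peaked in the meninges cluster (609 ± 136 CPM) and the ependyma (580.4 ± 95.5 CPM), whose ranges overlapped. *Sox9* was highest in the ependyma, at 236 ± 20.2 CPM, above the 115 ± 14.2 CPM of the next cluster, which was led by *Ndnf*, *Dio2* and *Reln*. That *Ndnf* and *Reln* cluster, with the lowest depth per spot, was the highest for *Aldoc* (1373 ± 39.2 CPM) and *Fgfr3* (142 ± 7.46 CPM) and the second for *Gjb6* (168 ± 4.32 CPM, after 267 ± 81.5 CPM in the meninges cluster). *S100b* was highest in the white matter cluster of *Gsn*, *Mag* and *Mal* (501 ± 68.5 CPM) and next in the cluster led by *Six3*, *Pvalb* and *Trh* (389 ± 98.0 CPM), with overlapping ranges. *Agt* was highest in the hypothalamic clusters led by *Agrp*, *Ucn3* and *Irs4* (382 ± 38.6 CPM) and by *Hcrt*, *Pmch* and *Avp* (379 ± 28.0 CPM), which did not differ beyond their spread, and lowest in the *Tnnc1*, *Lamp5* and *Kcnh5* cluster of the cortex (37.5 ± 6.23 CPM). For the 7 genes other than *Gfap* and *Agt* the lowest level lay in the hippocampal cluster of *Neurod6*, *Ccbe1* and *Homer3*, at 26.9 ± 5.26 CPM for *Sox9* and 34.9 ± 12.7 CPM for *Aqp4*. The highest cluster stood 17.7-fold above the lowest for *Gfap*, 10.2-fold for *Agt* and 8.76-fold for *Sox9*, and between 3.85-fold and 6.41-fold for the 6 others.

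The 2 white matter clusters differed in *Agt*. In the *Gsn*, *Mag* and *Mal* cluster *Agt* averaged 203 ± 22.3 CPM (SD, n = 4), from 174 to 227 CPM, and in the other white matter cluster, led by *Thbs4*, *Hist1h3c* and *Ccn2*, 69.8 ± 10.5 CPM, from 61.2 to 84.9 CPM. The ranges over the 4 sections did not overlap, whereas those of *Gfap* (437 ± 103 CPM and 365 ± 35.3 CPM) did. The difference between these clusters was not tested.

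**Figure D3:**
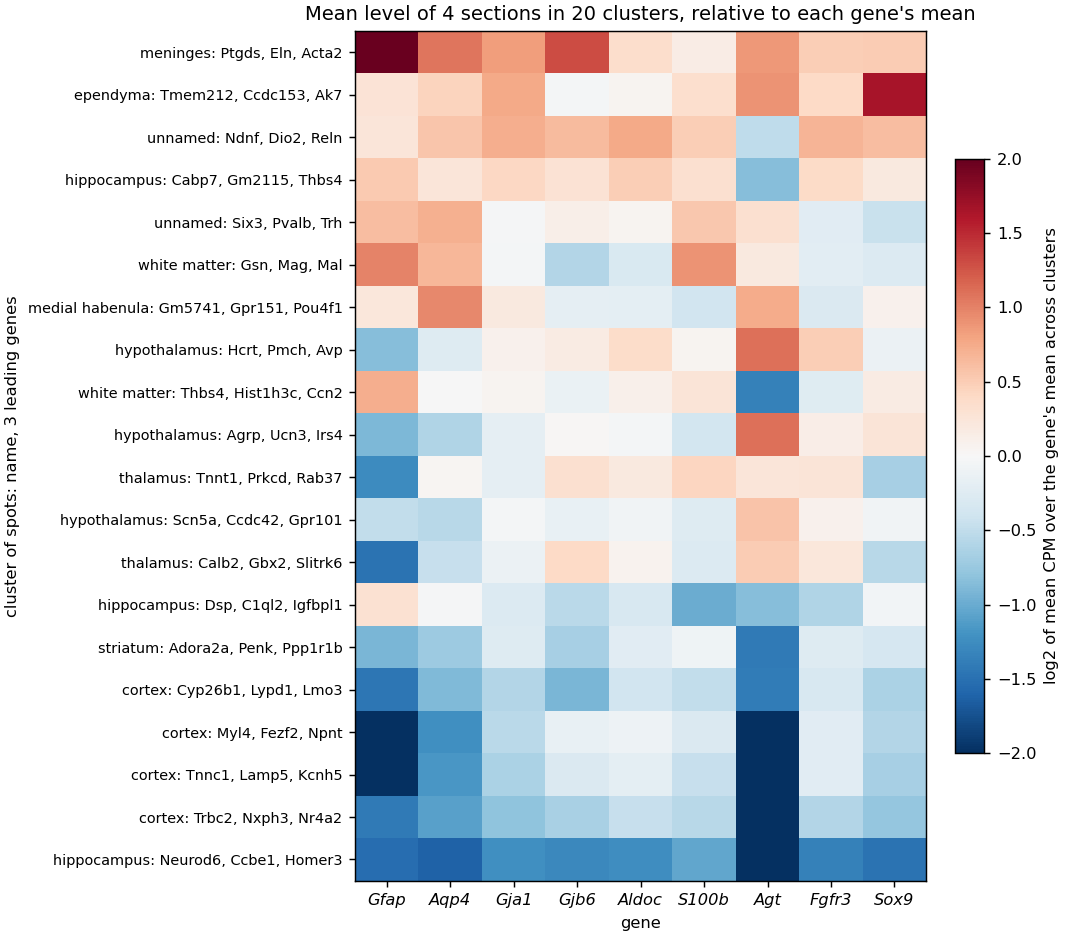
Mean level over the 4 sections of each of the 9 genes (columns) in 20 clusters of spots (vertical axis, with their 3 leading genes), as log2 of the mean CPM over the gene's mean across clusters (colour, blue below and red above the gene's mean). The meninges cluster was the highest for *Gfap*, *Aqp4*, *Gja1* and *Gjb6*, the ependyma for *Sox9*, and hypothalamic clusters for *Agt*.

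The genes most like each of the 9 were taken by Pearson r of log2(CPM + 1) across the 20 clusters, among 10201 genes with a mean of at least 10 CPM. Clusters share sections and depth and are not independent, so the values are descriptions. *Sox9* was most like *Mlc1* (Pearson r = 0.979) and *Slc27a1* (r = 0.945), the first of which encodes a membrane protein of astrocytes. *Gja1* was closest to *Sdc4* (Pearson r = 0.978) and *Apoe* (r = 0.967), a heparan sulfate proteoglycan and an apolipoprotein. *Aldoc* was closest to *Acsbg1* (Pearson r = 0.968) and *Cldn10* (r = 0.940), an acyl-CoA synthetase and a claudin. *Gjb6* had *Sparcl1* (Pearson r = 0.924), which encodes a secreted matrix protein, among its closest genes. *Fgfr3* went with *Aldoc* (Pearson r = 0.935) and *Tlcd1* (r = 0.934), and *Agt* with *Igsf1* (Pearson r = 0.956) and *Sparc* (r = 0.954). *Aqp4* had *Rida* (Pearson r = 0.925) and *Pdgfd* (r = 0.921) as its closest genes, and *S100b* had *Metrn* (Pearson r = 0.923) and *Rab31* (r = 0.915). The closest genes to *Gfap* had the lowest values of these 9 lists, *Lima1* (Pearson r = 0.897) and *Mcl1* (r = 0.896). With Spearman's rho in place of r, 1 of the 2 closest genes was shared for 8 of the 9 and 0 for *Agt*. Among the 36 pairs of the 9 genes themselves, r went from 0.327 (*Gfap* and *Fgfr3*) to 0.935 (*Aldoc* and *Fgfr3*), with a median of 0.634 over 20 clusters.

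The deposited table of Moran's I, a score of how strongly a gene's counts in neighbouring spots resemble each other, ranked *Agt* first among the 9 genes. Its score averaged 0.522 ± 0.0762 (SD, n = 4 sections), and its rank went from 42 to 88 of 16731 to 18235 features listed per section. *Gfap* followed with 0.359 ± 0.0340 and ranks from 177 to 280. *Aldoc* (0.187 ± 0.0106), *S100b* (0.179 ± 0.0735), *Aqp4* (0.153 ± 0.0457), *Gja1* (0.132 ± 0.0237) and *Gjb6* (0.110 ± 0.0198) came next, and the range of *Aldoc* lay above those of *Gja1* and *Gjb6*. *Fgfr3* (0.0624 ± 0.0183) and *Sox9* (0.0534 ± 0.0136) had the lowest scores, with ranks from 1902 to 3776 and 2977 to 4162. The score of *S100b* was lowest in HF replicate 1, at 0.0734, against 0.237 in MF replicate 1. Depth differed between the sections, and the score was not compared between sections or genes by a test.

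Between the diets, *Gfap* was the gene whose sections were set apart most widely. Over the whole section it stood at 177 CPM in MF replicate 1, 200.2 CPM in MF replicate 2, 143 CPM in HF replicate 1 and 132 CPM in HF replicate 2. Both HF sections lay below both MF sections. *Gfap* had a log2 fold change -0.46, SE 0.09, 1.38-fold lower, which was not called (adjusted p = 0.7, edgeR). *Agt*, the second gene whose sections did not overlap, stood at 178 CPM in MF replicate 1, 176 CPM in MF replicate 2, 175 CPM in HF replicate 1 and 163 CPM in HF replicate 2, a far smaller gap (log2 fold change -0.08, SE 0.07, 1.06-fold lower). Thus 2 of the 9 genes had both HF sections below both MF sections, as had 17.6% of features with at least 100 UMIs, and 0 had both above, as had 22.0% of features. With edgeR 0 of the 9 genes were called between the diets, beside 0% of 14971 genes. In that test 1 of the 9, *Gfap*, had an unadjusted p under 0.05. DESeq2 called 1 of the 9, *Gfap* again (adjusted p = 0.02), beside 22 of all genes. By edgeR 1020 of all genes, or 6.81%, had an unadjusted p under 0.05. Without HF replicate 1, 4 of the 9 were called over the whole section, beside 1166 of 15179 genes, and without HF replicate 2, 2 of the 9, beside 840 of 15130 genes. Without either MF section 0 of the 9 were called, beside 0 (MF replicate 1) and 1 (MF replicate 2) of all genes. Over the alternatives the adjusted p of *Gfap* went from 0.0013 (without HF replicate 1) to 1 (without either MF section, edgeR). In these fits the lone section of a diet is taken to vary like the sections of the other diet.

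The water channel gene *Aqp4* stood at 92.9 CPM in MF replicate 1, 108 CPM in MF replicate 2, 94.5 CPM in HF replicate 1 and 66.3 CPM in HF replicate 2. HF replicate 2 was the lowest, while HF replicate 1 lay between the MF sections. Its log2 fold change -0.33, SE 0.16, 1.26-fold lower had an adjusted p of 0.73 (edgeR). It was -0.59 without HF replicate 1, where it was called, and -0.10 without HF replicate 2. The connexin gene *Gja1* stood at 301 CPM in MF replicate 1, 331 CPM in MF replicate 2, 344 CPM in HF replicate 1 and 252 CPM in HF replicate 2, and *Gjb6* at 108 CPM in MF replicate 1, 109.6 CPM in MF replicate 2, 118 CPM in HF replicate 1 and 89.4 CPM in HF replicate 2. HF replicate 1 was the highest and HF replicate 2 the lowest section for both, so the diets overlapped, and the log2 fold changes were -0.10 (SE 0.15) and -0.08 (SE 0.13). *S100b* had the opposite order, at 277 CPM in MF replicate 1, 273 CPM in MF replicate 2, 194 CPM in HF replicate 1 and 287 CPM in HF replicate 2. HF replicate 1 was far below the other sections, and without it the log2 fold change of *S100b* turned from -0.20 to 0.07, whereas without HF replicate 2 it was -0.53. *Gja1* turned to 0.10 and *Gjb6* to 0.09 without HF replicate 2. *Aldoc* (726 to 878 CPM over sections, log2 fold change 0.01, SE 0.10), *Fgfr3* (77.0 to 104 CPM, 0.06, SE 0.14) and *Sox9* (59.4 to 66.3 CPM, 0.04, SE 0.08) had overlapping diets and changed sign when single sections were left out. The median log2 fold change of the 9 genes was -0.08, beside 0.00 over all genes.

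**Figure D4:**
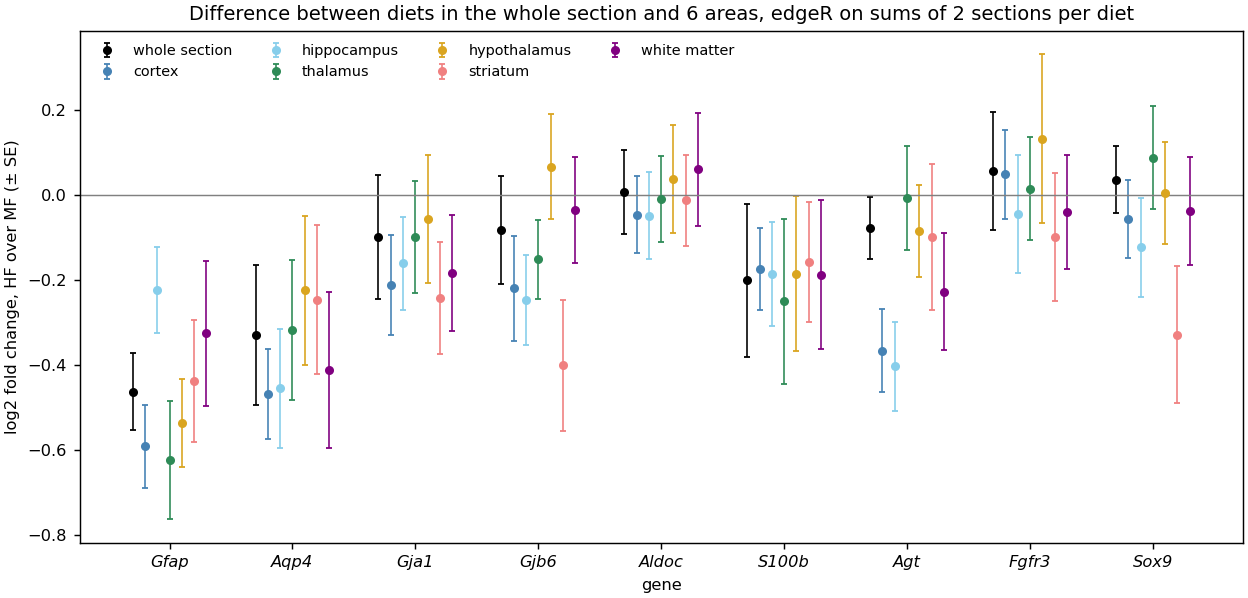
Log2 fold change of HF over MF (vertical axis) for each of the 9 genes (horizontal axis) in the whole section and 6 areas (colours), with bars of ± 1 SE from edgeR fits of 2 sections per diet. *Gfap* lay below 0 in all 7 fits, from -0.62 in the thalamus to -0.22 in the hippocampus, and was called in none of them.

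In the cortex, both HF sections were below both MF sections in *Gfap*, *Aqp4* and *Agt*. Cortical *Gfap* stood between 48.7 and 56.5 CPM in the HF sections and between 76.8 and 82.0 CPM in the MF sections. *Aqp4* stood at 54.0 CPM in MF replicate 1, 61.2 CPM in MF replicate 2, 44.2 CPM in HF replicate 1 and 38.3 CPM in HF replicate 2. The diets did not overlap for either gene, nor for *Agt*, whose cortical levels were 37.7 and 39.7 CPM in HF and 48.1 and 52.7 CPM in MF. *Gfap* had a log2 fold change -0.59, SE 0.10, 1.51-fold lower, which missed the threshold (adjusted p = 0.063, edgeR). *Aqp4* (log2 fold change -0.47, SE 0.11, 1.38-fold lower, adjusted p = 0.22, edgeR) and *Agt* (log2 fold change -0.37, SE 0.10, 1.29-fold lower, adjusted p = 0.37, edgeR) were also not called. Together with *S100b*, 4 of the 9 genes had both HF sections below both MF sections, as had 20.7% of features, and 0 had both above, as had 17.0%. EdgeR called 0 of the 9 in the cortex, beside 0.0592% of 13507 genes. By that test 3 had an unadjusted p under 0.05, beside 7.91% of all genes. DESeq2 called 1, *Gfap*, beside 24 of all genes. Over the alternatives, leaving aside those added after seeing the data, the adjusted p of *Gfap* went from 4.3e-06 to 0.085, and *Gfap* passed among these with DESeq2, with no filter on low counts, with interior spots, with spots thinned to 5000 UMIs, with replicate number as a block (log2 fold change -0.58, adjusted p = 0.029, edgeR), and without MF replicate 2, HF replicate 1 or HF replicate 2. Without HF replicate 1, 5 of the 9 were called in the cortex, beside 490 of 13714 genes. Without HF replicate 2 or MF replicate 2 it was 1 of the 9, beside 33 and 35 of all genes, and without MF replicate 1, 0 of the 9, beside 42. Of oligodendrocyte genes in the cortex 12 of 12 also lay below 0, 12 at an unadjusted p under 0.05 and 0 called by edgeR, with a median of -0.36. Their sums were 12589.8, 11816, 10229.5 and 9268 CPM, led by *Mbp* with none at 0. Meningeal genes (7 of 8, median -0.29) and microglial genes (5 of 7, median -0.09) mostly lay below 0 too, with 0 called, against 2 of 8 neuron genes. The part of these cells was not tested. The median of the 9 was -0.21, beside 0.00 over all genes.

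In the hippocampus 5 genes had both HF sections below both MF sections, *Gfap*, *Aqp4*, *Gjb6*, *Agt* and *Sox9*. *Aqp4* stood at 95.7 CPM in MF replicate 1, 109 CPM in MF replicate 2, 89.3 CPM in HF replicate 1 and 60.4 CPM in HF replicate 2, and *Gjb6* at 89.3 CPM in MF replicate 1, 88.2 CPM in MF replicate 2, 80.1 CPM in HF replicate 1 and 69.6 CPM in HF replicate 2. HF replicate 2 was the lowest for both. Both HF sections were below both MF sections for 20.5% of features there, and 0 of the 9 genes had both HF sections above, against 18.1% of features. *Agt* had the lowest adjusted p (log2 fold change -0.40, SE 0.11, 1.32-fold lower, adjusted p = 0.18, edgeR). *Aqp4* (log2 fold change -0.45, SE 0.14, 1.37-fold lower, adjusted p = 0.29, edgeR), *Gjb6* (log2 fold change -0.25, SE 0.11, 1.19-fold lower) and *Gfap* (log2 fold change -0.22, SE 0.10, 1.17-fold lower) were also not called. *Aqp4* stood at -0.73 without HF replicate 1 and -0.18 without HF replicate 2, and *Gjb6* at -0.15 without HF replicate 2. *Gfap* stood at -0.13 without MF replicate 2, -0.12 without HF replicate 2 and -0.05 with spots thinned to 5000 UMIs. EdgeR called 0 of the 9 between diets in the hippocampus, beside 0.329% of 12462 genes; 4 had an unadjusted p under 0.05, beside 8.68% of all genes, and DESeq2 called 0. Without HF replicate 1, 4 of the 9 were called, beside 636 of 12818 genes, and without HF replicate 2, 1, beside 137 of all genes. Without either MF section 0 of the 9 were called, beside 9 (MF replicate 1) and 45 (MF replicate 2). The median of the 9 was -0.19, beside 0.00 over all genes. Here 10 of 12 oligodendrocyte genes were called lower in HF, with hippocampal sums of 16274, 15341, 11056 and 10678 CPM, led by *Mbp* with none at 0, and their part in the levels of the 9 genes was not tested. That count is of the reported edgeR test, in which 32 genes of all tested were called lower, against 4 with spots thinned to 5000 UMIs, 6 at a Leiden resolution of 0.5 and 8 with interior spots. Ependymal (4 of 5, median -0.53), choroid plexus (5 of 6, -0.19), meningeal (7 of 8, -0.28), microglial (6 of 7, -0.18) and endothelial genes (5 of 5, -0.16) also lay below 0, with 0 called. Neuron genes did so in 2 of 8 cases, and the part of these cells was not tested either.

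In the thalamus *Gfap* stood at 90.0 CPM in MF replicate 1, 109 CPM in MF replicate 2, 71.5 CPM in HF replicate 1 and 57.9 CPM in HF replicate 2, and in the hypothalamus at 151 CPM in MF replicate 1, 159 CPM in MF replicate 2, 116 CPM in HF replicate 1 and 98.4 CPM in HF replicate 2. Both HF sections lay below both MF sections in each of these areas, with HF replicate 2 the lowest. Thalamic *Gfap* had a log2 fold change -0.62, SE 0.14, 1.54-fold lower (adjusted p = 0.58, edgeR), the largest fold change of the 9 genes in the 7 diet fits, and hypothalamic *Gfap* a log2 fold change -0.54, SE 0.10, 1.45-fold lower (adjusted p = 0.8, edgeR), which was -0.31 with interior spots and -0.38 at a Leiden resolution of 0.5. Thalamic *Gfap* was called with replicate number as a block (log2 fold change -0.62, adjusted p = 0.0084, edgeR), with no filter on low counts and without HF replicate 1 (-0.77) or HF replicate 2 (-0.48), and its adjusted p went from 2.0e-08 to 1 over the alternatives, leaving aside those added after seeing the data. In the thalamus *Gjb6* was the other gene with both HF sections below, 2 of 9 beside 17.4% of features, and in the hypothalamus *Gfap* was the only such gene of the 9, beside 17.7%. No gene had both HF sections above in either area, against 20.9% of features in the thalamus and 19.8% in the hypothalamus. EdgeR called 0 of the 9 in the thalamus, beside 0% of 13381 genes; 1 had an unadjusted p under 0.05, beside 7.11% of all genes, and DESeq2 called 0. In the hypothalamus edgeR also called 0, beside 0% of 13360 genes, with 1 at an unadjusted p under 0.05, beside 6.06% of all genes, and 0 called by DESeq2. Without HF replicate 1, 3 of the 9 were called in the thalamus, beside 961 of 13586 genes, and 2 in the hypothalamus, beside 760 of 13677 genes. Without HF replicate 2 these were 2, beside 1279 of all genes, and 3, beside 396. Without either MF section 0 of the 9 were called in both areas, beside 1 of all genes in the thalamus and 0 in the hypothalamus each time. Oligodendrocyte genes in the thalamus also lay below 0 (12 of 12, 11 at an unadjusted p under 0.05, 0 called by edgeR, median -0.35), with sums of 28563, 30290.0, 23757 and 24247 CPM, led by *Mbp* with none at 0. In the hypothalamus 11 of 12 did (3 at such a p, 0 called), with sums of 21274, 21209, 20405 and 19261 CPM, and their part was not tested. The medians of the 9 were -0.10 and -0.06, beside 0.00 and 0.00 over all genes. The sections did not fill the clusters evenly. The thalamic cluster led by *Gbx2*, *Grid2ip* and *Tcf7l2* took 226, 149, 14 and 205 spots, and that led by *Calb2*, *Gbx2* and *Slitrk6* 100, 160, 389 and 91. The hypothalamic cluster led by *Agrp*, *Ucn3* and *Irs4* took 244, 141, 113 and 20. A cortical cluster led by *Cyp26b1*, *Lypd1* and *Lmo3* took 259, 296, 241 and 135. The *Ndnf* and *Reln* cluster, which lies in the whole section but in none of the areas, took 116, 139, 268 and 124. At a Leiden resolution of 0.5, a hippocampal cluster with *Ndnf* among its leading genes took 262, 299, 370 and 296 spots. Whether the sections come from the same coronal plane is not known. The part of this in the diet differences was not tested.

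In the striatum, *Gfap* stood at 146 CPM in MF replicate 1, 126 CPM in MF replicate 2, 86.2 CPM in HF replicate 1 and 110.0 CPM in HF replicate 2. Both HF sections were again below both MF sections, but here HF replicate 1 was the lowest. *Gfap* had a log2 fold change -0.44, SE 0.14, 1.35-fold lower (adjusted p = 0.67, edgeR), and *Gjb6* a log2 fold change -0.40, SE 0.15, 1.32-fold lower (adjusted p = 0.72, edgeR). Striatal *Gfap* stood at -0.67 without HF replicate 2 and -0.31 without MF replicate 1. *Gfap*, *Gjb6* and *Sox9* made 3 of 9 genes with both HF sections below, beside 18.1% of features, and 0 had both above, beside 18.2%. EdgeR called 0 of the 9 in the striatum, beside 0.0526% of 11403 genes; 2 had an unadjusted p under 0.05, beside 6.62% of all genes, and DESeq2 called 0. In the white matter, where the diets overlapped in *Gfap* and *Aqp4*, *Aqp4* had a log2 fold change -0.41, SE 0.18, 1.33-fold lower (adjusted p = 0.96, edgeR), which was -0.63 without MF replicate 1, -0.62 without HF replicate 1, -0.16 without MF replicate 2 and -0.17 without HF replicate 2. *Agt* was the only one of the 9 with both HF sections below in white matter, beside 14.9% of features, and 0 had both above, beside 18.9%. EdgeR called 0 of the 9 in white matter, beside 0.00795% of 12581 genes; 1 had an unadjusted p under 0.05, beside 4.65% of all genes, and DESeq2 called 0. Leaving out any single section gave 0 of the 9 called in the striatum and in the white matter, beside 11 to 172 and 8 to 62 of all genes. Of oligodendrocyte genes 11 of 12 lay below 0 in the striatum (31062, 26219, 26767 and 24892 CPM) and 12 of 12 in the white matter (81108, 97446, 90995 and 75549 CPM), with 2 and 0 at an unadjusted p under 0.05. Of meningeal genes 3 of 3 tested lay below 0 in the striatum (64.7, 61.3, 53.6 and 49.4 CPM) and 6 of 8 in the white matter (107, 104, 115 and 67.9 CPM), with 1 and 2 at such a p, 0 called by edgeR in either list, and their part was not tested. The medians of the 9 were -0.24 in the striatum and -0.18 in the white matter, beside 0.00 and 0.00 over all genes.

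For the genes without a named difference in single areas, the log2 fold changes of HF over MF are given by their range over the 6 areas. *Gja1* went from -0.24 (striatum) to -0.06 (hypothalamus) and *S100b* from -0.25 (thalamus) to -0.16 (striatum), both below 0 in 6 of 6 areas. HF replicate 1 was the lowest section for *S100b* in each of the 6, whereas HF replicate 2 was the highest in the thalamus, the striatum and the white matter. *Aldoc* went from -0.05 (hippocampus) to 0.06 (white matter), *Fgfr3* from -0.10 (striatum) to 0.13 (hypothalamus) and *Sox9* from -0.33 (striatum) to 0.09 (thalamus), on both sides of 0. In the areas not given above, *Agt* reached -0.01 in the thalamus and *Gjb6* 0.07 in the hypothalamus. Whether the diet difference itself differed between areas was tested by 5 area by diet terms over the 6 areas. EdgeR called 0 of the 9 genes, beside 0.0294% of 13624 genes; 1 of the 9, *Agt* (adjusted p = 0.83), had an unadjusted p under 0.05, beside 6.03% of all genes, and DESeq2 called 0. The differences of *Agt* between diets in the cortex and the thalamus were therefore not shown to differ from each other, nor were those of *Gfap* among the 6 areas (adjusted p = 0.85, edgeR).

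Other astrocyte genes were not called between the diets either: edgeR called 0 of 47 over the whole section, with 3 at an unadjusted p under 0.05 and a median of -0.01 beside 0.00 over all genes. In the cortex 13 of 47 had an unadjusted p under 0.05, beside 7.91% of all genes, and 36 lay below 0, with a median of -0.12, and in the hippocampus 8 had such a p, beside 8.68% of all genes, and 34 lay below 0, with a median of -0.08. The direction was not the same everywhere, since the median was 0.02 in the thalamus, 0.08 in the hypothalamus and 0.04 in the white matter, and -0.10 in the striatum. An unadjusted p under 0.05 was held by 7 of 47 in the thalamus, 4 of 47 in the hypothalamus, 11 of 46 in the striatum and 1 of 47 in the white matter, beside 7.11%, 6.06%, 6.62% and 4.65% of all genes. Of the reactive genes edgeR called 0 of 15 tested over the whole section, with 1 at an unadjusted p under 0.05 and a median of -0.10. The summed level of the 47 astrocyte genes was 11448, 11486, 12674 and 10771 CPM, led by *Slc1a2*, a glutamate transporter, so HF replicate 1 was the highest and HF replicate 2 the lowest, as for *Gja1* and *Gjb6*. None of 58 other astrocyte and reactive genes tested was called for a diet difference that varied over areas (edgeR).

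Markers of other cells also differed between the sections. Oligodendrocyte genes over the whole section had sums of 26322, 27488, 21810.4 and 23412 CPM, led by *Mbp*, with 12 of 12 below 0 in HF over MF, 8 at an unadjusted p under 0.05 and 0 called by edgeR. Both HF sections were below both MF sections in this sum, as for *Gfap*. Meningeal genes had sums of 129, 127, 173 and 86.0 CPM, led by *Col1a2*, so that HF replicate 1 was the highest and HF replicate 2 the lowest, as for *Gja1* and *Gjb6*. Choroid plexus genes, led by *Ttr*, had sums of 2437, 2294, 3415 and 3782 CPM, and ependymal genes, led by *Rarres2*, of 55.4, 55.3, 78.0 and 72.5 CPM, both higher in the HF sections. Unadjusted p under 0.05 was found for 4 of 6 choroid plexus, 4 of 5 ependymal, 0 of 8 meningeal, 1 of 5 endothelial, 1 of 7 microglial, 1 of 5 oligodendrocyte precursor and 0 of 8 neuron genes, and edgeR called 0 in each of these lists over the whole section. No gene of these lists was at 0 in the whole section, and their part in the differences of the 9 genes was not tested.

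Promoter sequences of 250 bases before to 50 bases after a transcription start were at hand from RefSeq (GRCm38.p6) for 7 of the 9 genes; *Aqp4* and *Sox9* had no entry, and *Aldoc* and *Fgfr3* had 2 promoters each. A palindrome bound by STAT factors, TTCNNNGAA, was found in 3 of their 9 promoters, those of *Gfap* and *Agt* and 1 of the 2 of *Aldoc*, and in 8.30% of 32851 promoters. The site letters of nuclear factor I, TTGGCA on either strand, were found in 2 of the 9 promoters, that of *S100b* and the other of *Aldoc*, and in 14.1% of all promoters, and the TATA box letters TATAAA on either strand in 1 of the 9, that of *Agt*, and in 13.6% of all. None of the 3 motifs was found in the promoters of *Gja1*, *Gjb6* and *Fgfr3*. The promoters of *Gfap* and *Agt* are shown because these genes differed most over the areas, in white matter and hypothalamus, and because each holds a match to the STAT letters. Both lie on the minus strand, at chr11:102897151-102897450 for *Gfap* and chr8:124569657-124569956 for *Agt*, and are written 5′ to 3′ with the matches to TTCNNNGAA and TATAAA in capitals.
Gfap: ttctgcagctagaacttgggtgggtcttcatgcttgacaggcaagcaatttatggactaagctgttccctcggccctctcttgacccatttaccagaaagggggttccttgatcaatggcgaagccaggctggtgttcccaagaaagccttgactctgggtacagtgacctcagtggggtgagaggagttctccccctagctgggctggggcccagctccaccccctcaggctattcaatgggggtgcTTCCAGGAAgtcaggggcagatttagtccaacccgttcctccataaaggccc
Agt: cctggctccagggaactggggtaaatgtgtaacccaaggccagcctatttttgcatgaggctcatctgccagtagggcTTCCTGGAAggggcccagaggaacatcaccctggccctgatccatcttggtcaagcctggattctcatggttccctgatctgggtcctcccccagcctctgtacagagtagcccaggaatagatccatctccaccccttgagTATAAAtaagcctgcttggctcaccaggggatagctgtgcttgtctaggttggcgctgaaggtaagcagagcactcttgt
The match in *Gfap* spans positions 249 to 257 of the 300 bases, and those in *Agt* positions 79 to 87 and 221 to 226. A match is a description of letters and not of binding.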

How the data were processed

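Visium FFPE sections of 4 mouse brains were used, 2 per diet. The deposited matrices hold raw UMI counts per feature and spot, made by the authors with Space Ranger against mm10, and the deposited table of Moran's I holds a score per feature. The other deposited files name barcodes and features and give positions on the array. Spots with at least 500 UMIs and 250 features were kept. Log CPM of 2000 variable genes was scaled within sections, reduced to 30 components and clustered over 20 neighbours (Leiden, resolution 1; Python 3.11.15, scanpy 1.11.5, leidenalg 0.10.2). The 9 genes, the other listed astrocyte genes and genes of immediate early response, hormones, blood and mitochondria stayed out of the clustering. A cluster took the area with the most markers among its 50 leading genes. Hippocampal neuropil could not be set by its planned markers. In its place low-depth spots were taken, after seeing the data, as the hippocampal clusters whose median depth was on average below that of their section.

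UMIs were summed per section and area and tested with edgeR 4.0.16 (TMM, filterByExpr, quasi-likelihood; R 4.3.3), on all genes, with diet as the term or area with section as a block, and with DESeq2 1.42.0 (dispersion prior variance rounded) as an alternative. Both were tested on simulated data. The other alternatives were no filter on low counts, a Leiden resolution of 0.5, library size without TMM, spots thinned to 5000 UMIs, interior spots, replicate number as a block and each section left out. With replicate number as a block, *Gfap* of the cortex had a log2 fold change of -0.58. The genes and the gene lists were chosen with earlier results of these data known. Named were the 9 genes (between diets in single areas where an unadjusted p was under 0.05), the 3 listed astrocyte or reactive genes with the largest called difference in each direction, and the 2 genes most like each of the 9 (1 for *Gjb6*). Positions came from GENCODE and promoters from RefSeq. Median depth was 9286 to 23543.5 UMIs per spot. SDs are the spread over the 4 sections of both diets, so they include any difference between the diets. Interior spots were not run for the whole section, the low-depth spots and the surface, and no image was used.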

Additional observations from a re-analysis of the deposited data

Results flagged for a closer look

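The spread of each gene over the 4 sections was examined for a section far from the others, by its gap to the nearest other section as a share of the range (Dixon's test). Of 99 levels of the 9 genes by area, 8 had such a section. The threshold picks about 1 in 20 among independent samples of 1 group. The levels share spots and hold both diets, so the 8 cannot be set against that rate. HF replicate 2 stood low in *Aqp4* of the hypothalamus (59.7 CPM) and of the striatum (49.9 CPM), in *Gjb6* of the cortical interior (64.2 CPM) and in *Sox9* of the hippocampus (55.0 CPM). HF replicate 1 stood low in *S100b* of the whole section (194 CPM) and of the cortical interior (167 CPM), and high in *Sox9* of the cortical surface (119.7 CPM). MF replicate 2 stood low in *Aldoc* of the white matter (656 CPM). What sets these sections apart was not tested.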

How the results depend on the processing

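Of the counts of called genes, 117 of 143 stayed within 1.5 times their value under the alternatives, as did the side of the threshold and the sign of 202 of 243 log2 fold changes between diets and 412 of 450 log2 differences between areas. Of the others, 32 and 13 passed in addition, 16 differences no longer passed, and 9 and 9 turned their sign. All 63 mean levels moved by less than their spread with TMM scaling, and the 2 genes most like each of the 9 were not the same pair with Spearman's rho for any of the 9.

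Between diets, edgeR called 0 of the 9 genes in each area, with 1 to 4 at an unadjusted p under 0.05. DESeq2 called 1 over the whole section and 1 in the cortex, beside 22 and 24 of all genes. Without a filter on low counts edgeR called 2 of the 9 in the cortex, and 1 each in thalamus and hippocampus, beside 149, 111 and 155 of all genes. In the cortex it called 1 with interior spots and 1 with thinned spots, beside 11 and 32 of all genes. With replicate number as a block 1 of the 9 was called in the cortex and 1 in the thalamus, *Gfap* in both, beside 25 and 45 of all genes. The labels do not say that replicate numbers pair the sections, and the deviations of the first replicates from their diet means had r = -0.165 across 14971 genes, which are not independent. A block that joins MF replicate 1 to HF replicate 2, chosen after seeing the data, gave 2 in the cortex and 1 each in thalamus and hippocampus. Beside these stood 140, 84 and 113 of all genes. Leaving out each section in turn, the counts went from 0 to 4 over the whole section, 0 to 5 in the cortex, 0 to 4 in the hippocampus, 0 to 3 in the thalamus and 0 to 3 in the hypothalamus. Without HF replicate 1 they were 4, 5, 4, 3 and 2 in this order, without HF replicate 2 they were 2, 1, 1, 2 and 3, and without MF replicate 2 the count was 1 in the cortex. The section then alone in its diet is assumed to vary like the other diet. The log2 fold changes over the whole section went from -0.33 to 0.097 for *Gja1*, -0.28 to 0.093 for *Gjb6*, -0.12 to 0.13 for *Aldoc*, -0.53 to 0.065 for *S100b*, -0.16 to 0.25 for *Fgfr3* and -0.018 to 0.095 for *Sox9*. Their signs turned without HF replicate 2 for *Gja1* and *Gjb6*, without HF replicate 1 for the 4 others, and also without MF replicate 2 for *Aldoc* and without MF replicate 1 for *Sox9*, and that of *Aldoc* was -0.033 with thinned spots.

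Between areas, the 3 genes called in the hypothalamus became 6 with library size alone and 5 with interior spots, beside 6106 of 13624 and 5481 of 13107 genes. The 8 at the cortical surface became 1 with cortex spots alone, an alternative chosen after seeing the data, beside 136 of 12079 genes. Signs turned for *Gfap* in the hypothalamus at a Leiden resolution of 0.5 (-0.040), for *S100b* in the hypothalamus with thinned spots (-0.026) and without MF replicate 1 (-0.041 to 0.063 over the sections left out in turn), and for *S100b* at the surface with cortex spots alone (-0.23). In the hippocampus they turned for *Gja1* with interior spots (-0.17), for *Gjb6* (0.090), *Aldoc* (0.14) and *S100b* (0.0057) with thinned spots, and for *Aldoc* at a Leiden resolution of 0.5 (0.010). The whole section without the *Ndnf* and *Reln* cluster and the surface with it were also added after seeing the data. They had 0 and 9 genes called, beside 0 of 14961 and 5219 of 12793 genes.

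Over the alternatives, called genes among all tested went from 0 to 1166 over the whole section, 8 to 490 in the cortex, 5 to 636 in the hippocampus, 0 to 1279 in the thalamus, 0 to 760 in the hypothalamus, 3 to 172 in the striatum and 1 to 62 in the white matter between diets, and 0 to 267 for area by diet. Between areas they went from 2639 to 4502 in the hippocampus, 1814 to 4313 in the low-depth hippocampal spots and 136 to 5314 at the surface. The cause was not tested. Cortex spots alone left 10 to 17 spots per section at the surface, and thinning left out 9 to 510 spots per section.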
